A study of Homo sapiens with 6 samples.

Results

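The DNA replication machinery is described here through 37 genes, chosen by name, out of 62700 genes in a table of RNA sequencing read counts. All 37 were found in the table by exact gene identifier, and all 37 passed the filter on low counts that left 20250 genes for testing. They comprised 3 genes of S phase entry, 4 of origin licensing, 6 of the helicase core, 6 of helicase activation and 5 of the sliding clamp and its loader. The others were 3 polymerase genes, 2 of single-strand binding, 3 of lagging strand maturation and repair, 3 of nucleotide supply and 2 of chromatin assembly.

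The cells carried the label MKN-45, the name of an established line from a human adenocarcinoma of the stomach, and poly(A) RNA was collected 48 h after transfection. The control group and the labelled NNMT knockdown group had 3 libraries each, every one called an independent biological replicate by the labels. NNMT encodes nicotinamide N-methyltransferase, which methylates nicotinamide. Some labels name a small interfering RNA as the transfected agent and others a short hairpin RNA, and the control cells are called untouched in one place and transfected with a negative control in others.

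A replication origin is licensed when the origin recognition complex, CDC6 and CDT1 load the ring of MCM2 to MCM7 onto DNA during G1. At the start of S phase the ring is activated by CDC45 and the GINS complex and unwinds DNA ahead of the polymerases, which are held in place by the PCNA clamp. Many genes of this machinery are targets of E2F transcription factors, and their mRNA is more abundant in dividing than in resting cells.

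Library totals ranged from 40558680 to 56067484 reads, and 3.9% to 4.82% of the reads came from mitochondrial genes. NNMT had 0, 8 and 12 reads in control replicates 1, 2 and 3 and 2, 8 and 14 reads in knockdown replicates 1, 2 and 3. These few reads gave no check of the knockdown, since the groups overlapped and the fitted fold had a 95% interval from 0.336 to 5.78 (edgeR's quasi-likelihood test, unadjusted p = 0.6158). The 0 in control replicate 1 allowed a level of up to 0.0721 CPM, the read count scaled to a common library total, a limit for counting error alone that is too low because mates were counted singly. Of 15 gastric and intestinal markers, 9 had a mean level under 1 CPM, and GKN1, CDX2 and GATA4 were at 0 in every library. The others were MUC6 at 50.7, EPCAM at 26.3, MUC5AC at 11.3, GATA6 at 7.09, TFF1 at 5.24 and TFF2 at 1.66 CPM. All 7 epithelial markers were above 1 CPM, among them KRT19 at 995 CPM. Of the 12 mesenchymal markers, FN1 stood at 2310, VIM at 817, COL1A1 at 322 and COL3A1 at 83.3 CPM. PDGFRA was at 28.0, COL1A2 at 10.4 and FAP at 1.65 CPM, and the other 5 had means under 1 CPM. All 7 immune markers had means under 1 CPM, so the cells are named here by their label only.

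Control replicate 1 and knockdown replicate 2 stood apart from the other 4 libraries in the replication genes, as was seen after the values were known. The 37 genes together took 0.209% of the reads in control replicate 1 and 0.222% in knockdown replicate 2. Their share was 0.169% and 0.166% in control replicates 2 and 3, and 0.185% and 0.167% in knockdown replicates 1 and 3.

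The promoters of 6 replication genes are shown because they differ in the letters of a common E2F site, and because none of their bases lay in an exon of the deposited annotation. Each is the 250 bases before the RefSeq transcription start (build GRCh38.p14), written 5′ to 3′ on the strand of the gene. The windows were chr20:33686386-33686635 on the minus strand for E2F1, chr16:88803539-88803788 on the plus strand for CDT1, and chr2:135876444-135876693 on the minus strand for MCM6. They were chr16:85688955-85689204 on the minus strand for GINS2, chr10:13161308-13161557 on the plus strand for MCM10 and chr19:29811741-29811990 on the plus strand for CCNE1. The window of GINS2 lay in an intron of its deposited gene model, and the other 5 lay directly before theirs. Capitals mark the E2F letters TTTCCCGC, TTTCGCGC, TTTGCCGC or TTTGGCGC and the CCAAT box, each on either strand, so that a match on the opposite strand appears as its reverse complement.
E2F1: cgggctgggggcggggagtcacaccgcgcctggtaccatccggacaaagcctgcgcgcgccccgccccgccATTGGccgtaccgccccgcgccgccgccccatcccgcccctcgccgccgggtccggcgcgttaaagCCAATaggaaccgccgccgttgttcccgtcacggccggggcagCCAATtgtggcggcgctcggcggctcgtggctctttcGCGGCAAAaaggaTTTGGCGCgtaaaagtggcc
CDT1: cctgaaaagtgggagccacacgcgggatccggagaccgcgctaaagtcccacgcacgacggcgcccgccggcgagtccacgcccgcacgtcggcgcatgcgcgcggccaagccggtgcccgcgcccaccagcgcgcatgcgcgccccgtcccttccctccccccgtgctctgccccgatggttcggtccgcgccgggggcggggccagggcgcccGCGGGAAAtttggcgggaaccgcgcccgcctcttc
MCM6: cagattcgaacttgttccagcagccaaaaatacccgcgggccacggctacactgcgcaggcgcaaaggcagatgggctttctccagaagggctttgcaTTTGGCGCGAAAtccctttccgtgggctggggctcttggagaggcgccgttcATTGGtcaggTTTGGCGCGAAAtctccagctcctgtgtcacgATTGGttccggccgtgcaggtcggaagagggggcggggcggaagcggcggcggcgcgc
GINS2: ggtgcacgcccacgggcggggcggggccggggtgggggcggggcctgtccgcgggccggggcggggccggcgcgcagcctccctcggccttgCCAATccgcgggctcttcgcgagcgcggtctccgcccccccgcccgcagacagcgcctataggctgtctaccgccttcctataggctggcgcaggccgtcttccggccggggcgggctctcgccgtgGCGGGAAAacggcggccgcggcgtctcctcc
MCM10: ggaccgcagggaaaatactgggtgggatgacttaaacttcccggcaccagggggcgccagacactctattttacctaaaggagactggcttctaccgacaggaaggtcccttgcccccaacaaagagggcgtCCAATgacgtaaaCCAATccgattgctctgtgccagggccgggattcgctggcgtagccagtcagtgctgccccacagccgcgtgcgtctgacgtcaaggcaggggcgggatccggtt
CCNE1: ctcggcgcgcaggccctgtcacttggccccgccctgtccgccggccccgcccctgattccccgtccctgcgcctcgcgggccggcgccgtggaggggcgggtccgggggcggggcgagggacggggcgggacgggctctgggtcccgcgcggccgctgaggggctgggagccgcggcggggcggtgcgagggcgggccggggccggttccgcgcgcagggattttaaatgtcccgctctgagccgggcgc
The window of E2F1, the factor that gives the family its name, held 2 E2F matches, which began 33 and 20 bases before the start, and 3 CCAAT boxes. MCM6, a helicase subunit, held the run TTTGGCGCGAAA at 2 places, each of them 2 overlapping matches on opposite strands. CDT1 and GINS2 held 1 E2F match each, 35 and 31 bases before the start. MCM10 held 2 CCAAT boxes and no E2F match, and CCNE1 held neither.

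A promoter window was present in the RefSeq table for 32 of the 37 genes, which leaves out RPA2, GINS4, MCM5, MCM4 and CCNE2. E2F letters were found upstream of the start in 12 of the 32 genes (37.5%), namely MCM3, MCM6, MCM7, CDT1, GINS2, PCNA, RFC3, POLA1, POLE, LIG1, E2F1 and UNG. The share was 3.4% over all 27305 genes with a window and 5.25% over the 12686 of them that were tested. With the first 50 bases of the transcript included, MCM2, CDC6, GINS1 and GINS3 also held a match, which made 16 of 32, against 6.19% of the tested genes. A CCAAT box lay upstream of 21 of the 32 genes (65.6%), against 40.5% of the tested genes. These are letter matches, not binding sites shown by the data. Where a gene had several windows, as MCM7, PCNA and UNG had, a match in any of them counted. Unlike the windows shown, some upstream windows lay in annotated exons of their own gene. Among genes with a match, this held for all 250 bases in LIG1 and in the first window of MCM7, and for 139 in MCM3. Among genes without, it held for 250 bases in the first window of RRM2, 241 in GINS3, 213 in RFC4 and 180 in RPA1. It also held for 182 and 119 bases in the first windows of CDC45 and POLD1. In both sets some other genes had fewer such bases.

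**Figure D1:**
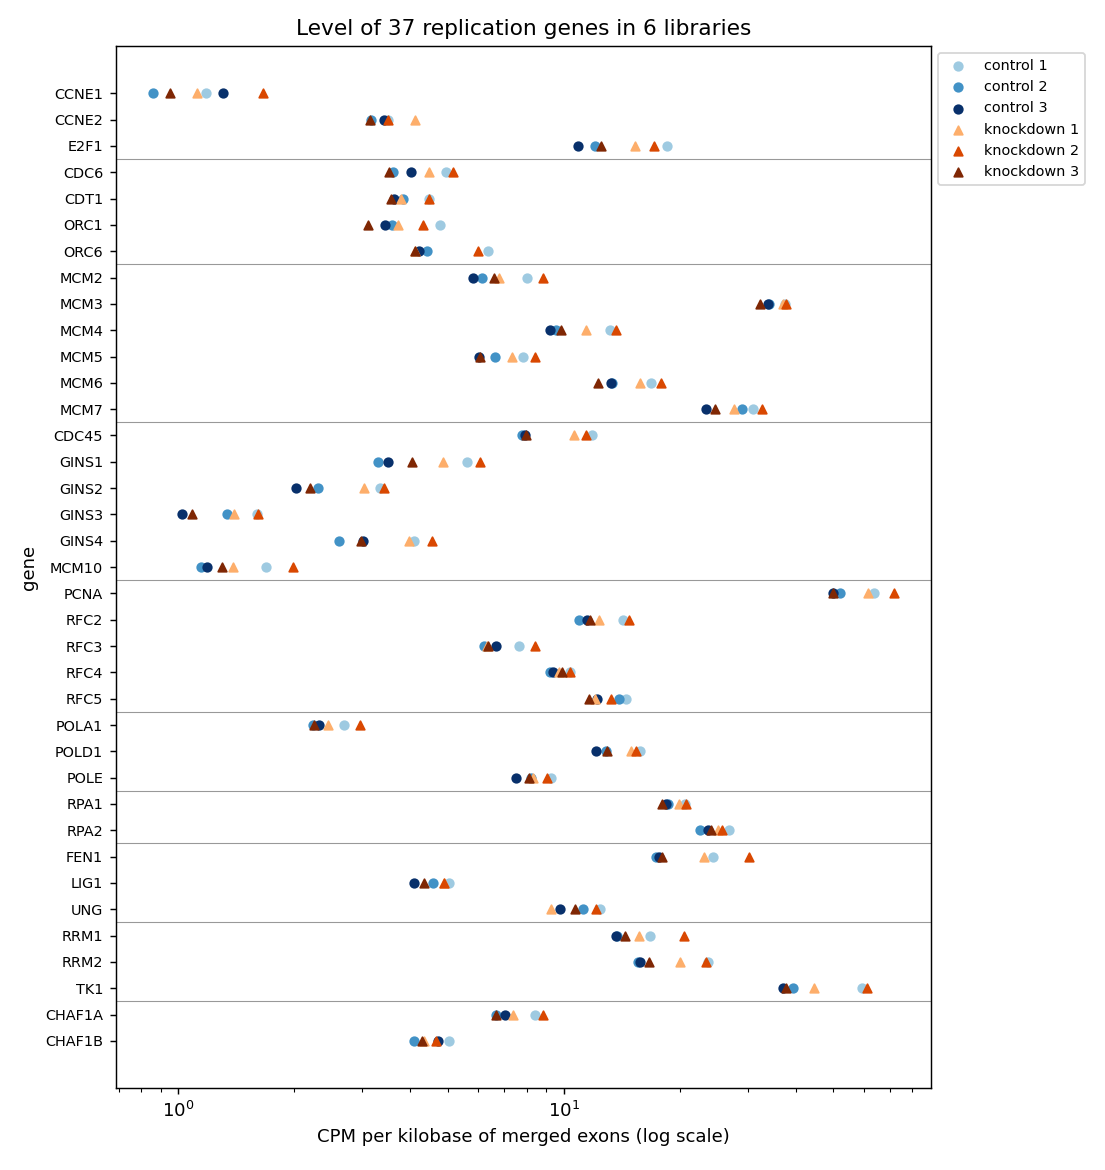
Level of each of the 37 replication genes in each library, in CPM per kilobase of merged exons on a log axis, with genes grouped by role. Circles are the 3 control libraries and triangles the 3 libraries labelled NNMT knockdown. PCNA has the highest mean level, 58.1, and CCNE1 the lowest, 1.18.

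Levels per kilobase of exon differed more between the genes than between the libraries, as the plot of levels by gene shows. The highest library was 1.13 times the lowest for RFC4 and 1.93 times for CCNE1, the ends of the range over the 37 genes. Gene positions are those of the deposited table, on build hg38. PCNA, the sliding clamp (chr20:5114953-5126626), had the highest mean at 58.1 CPM per kilobase, with a range of 49.9 to 71.6 over the 6 libraries. It was followed by TK1, the thymidine kinase of S phase cells (chr17:78174091-78187233), at 46.5 with a range of 37.1 to 61.0, so these neighbours overlapped. MCM3 came next at 35.4, with a range of 32.3 to 37.8, and MCM7 at 28.0, with a range of 23.4 to 32.7. The lowest means were those of CCNE1, the cyclin E1 gene (chr19:29811991-29824312), at 1.18, GINS3 at 1.34 and MCM10 at 1.45, whose ranges also overlapped.

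Subunits that work in a fixed ratio were not equal in mRNA level per kilobase. In the helicase core, MCM3 at 35.4 and MCM7 at 28.0 stood above MCM6 at 14.9 and MCM4 at 11.1, while MCM5 and MCM2 were at 7.05 and 7.03. Among the GINS genes, GINS1 stood at 4.56, GINS4 at 3.53, GINS2 at 2.72 and GINS3 at 1.34. The clamp loader genes ranged from 6.93 for RFC3 to 12.9 for RFC5, and the single-strand binding genes RPA2 and RPA1 stood at 24.7 and 19.4. Merged exon length includes every annotated isoform, and it ranged from 1403 bases for PCNA to 15547 bases for POLA1, so a gene with many rarely used exons has a lower value per kilobase.

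No replication gene passed the test of labelled knockdown against control. With edgeR's quasi-likelihood test and Benjamini-Hochberg adjustment over all 20250 genes, 0 of the 37 genes passed the 0.05 threshold, and 0% of all tested genes passed. At an unadjusted p under 0.05 the counts were 0 of 37 and 4.03% of the tested genes, the latter made up of 1.98% higher and 2.05% lower. DESeq2 and limma-voom also called 0 of the 37, against 0.0211% and 0% of the genes they tested, as did edgeR without the low-count filter, against 0.19%. The smallest unadjusted p was 0.1849 for RRM1, and the smallest adjusted p was 0.9995. In 0 of the 37 genes were the 3 knockdown libraries all above or all below the 3 controls, against 9.2% of the tested genes.

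The fitted log2 fold changes of the 37 genes ranged from -0.13 for RFC5 to 0.27 for GINS1, with a median of 0.081, against 0.0033 for all tested genes. They were above 0 in 31 of the 37 genes and in 50.8% of the tested genes. Without knockdown replicate 2 the median was -0.024, with 15 of 37 genes above 0, and without control replicate 1 it was 0.20, with 36 of 37 above 0. The sign of the median thus turned without knockdown replicate 2. All 37 fold changes had 95% intervals within 2-fold in either direction, from a lowest bound of 0.695 for ORC6 to a highest bound of 1.78 for GINS1. In RNA from whole cultures, a change in the share of cells in S phase and a change of mRNA in each cell cannot be told apart.

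**Figure D2:**
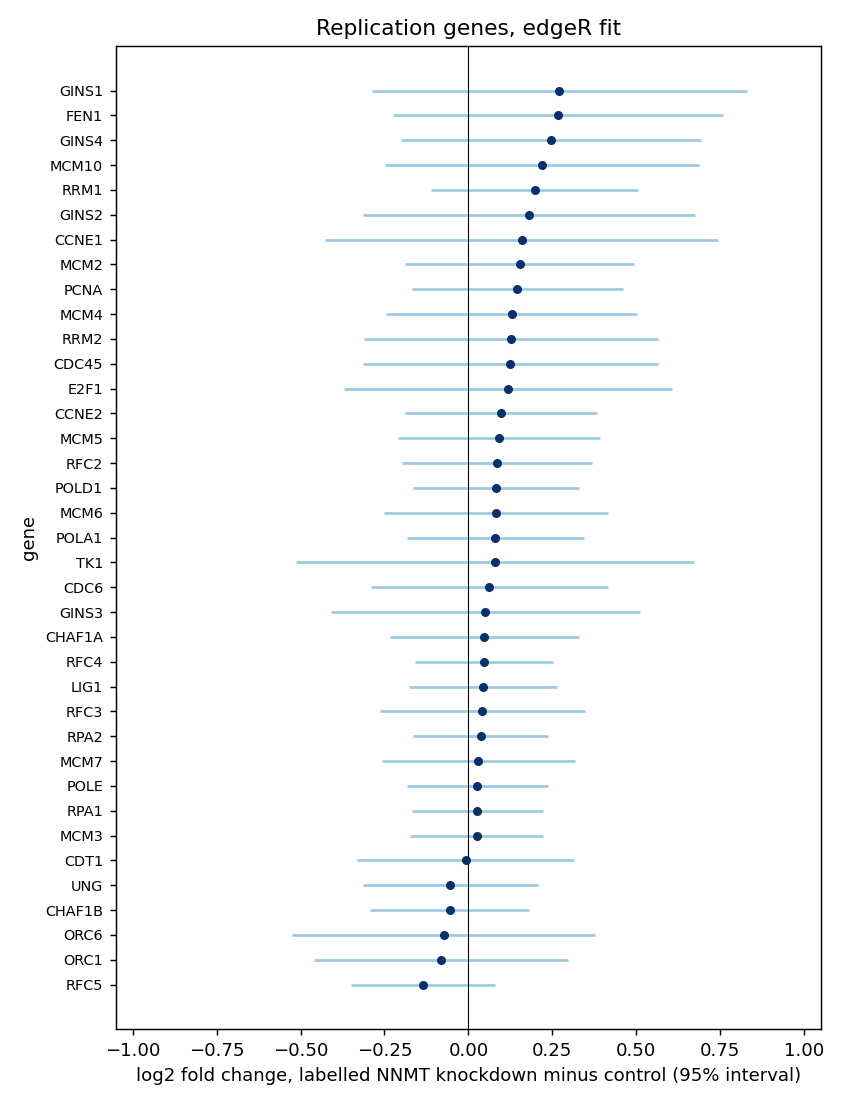
Fitted log2 fold change of labelled NNMT knockdown over control for each of the 37 replication genes, with 95% intervals from edgeR's quasi-likelihood fit. Every interval includes 0, and the values run from -0.13 for RFC5 to 0.27 for GINS1.

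E2F1, which switches on genes of S phase, had 49.7, 32.4 and 29.3 CPM in control replicates 1, 2 and 3 and 41.1, 46.1 and 33.5 CPM in knockdown replicates 1, 2 and 3. Control replicate 1 was the highest of the 6 and control replicate 3 the lowest, so the control range enclosed all knockdown values. Cyclin E binds CDK2 and drives entry into S phase. CCNE1 had 2.90, 2.11 and 3.21 CPM in the controls and 2.74, 4.09 and 2.35 CPM in the knockdown libraries. CCNE2 had 15.3, 13.9 and 15.0 CPM in the controls and 18.1, 15.4 and 13.8 CPM in the knockdown libraries. CCNE2 was the single replication gene that was highest in knockdown replicate 1. Log2 differences between the groups were 0.12 (SE 0.21) for E2F1, 0.16 (SE 0.27) for CCNE1 and 0.097 (SE 0.13) for CCNE2.

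For origin licensing, CDC6 takes part in loading the MCM ring onto DNA. It had 26.3, 19.2 and 21.4 CPM in the controls and 23.7, 27.4 and 18.7 CPM in the knockdown libraries. CDT1, its partner in loading, had 12.3, 10.6 and 9.99 CPM in the controls and 10.4, 12.4 and 9.85 CPM in the knockdown libraries. The knockdown range of CDC6 enclosed the control range, and CDT1 was highest in control replicate 1 and knockdown replicate 2, which lay close together. The log2 differences were 0.063 (SE 0.16) for CDC6 and -0.0082 (SE 0.15) for CDT1. ORC1 and ORC6, subunits of the origin recognition complex, were at -0.082 and -0.073, so 1 of the 4 licensing genes lay above 0.

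The MCM2 to MCM7 proteins form the ring that unwinds DNA, and in all 6 of their genes knockdown replicate 2 was highest and control replicate 1 second. MCM2 (chr3:127598410-127622436) had 37.9, 29.0 and 27.3 CPM in the controls and 32.0, 41.6 and 31.0 CPM in the knockdown libraries. MCM4 had 129.9, 93.8 and 90.8 CPM in the controls and 113, 134 and 96.7 CPM in the knockdown libraries. In both genes control replicate 3 was the lowest library, and the knockdown range overlapped the control range. MCM5 had 57.0, 48.3 and 43.7 CPM in the controls and 53.3, 61.2 and 44.0 CPM in the knockdown libraries. MCM6 had 69.6, 55.2 and 54.6 CPM in the controls and 65.0, 74.1 and 50.7 CPM in the knockdown libraries. MCM6 differed from MCM5 in that its lowest library was knockdown replicate 3. MCM7 had 153, 143 and 116 CPM in the controls and 137, 162 and 122 CPM in the knockdown libraries. MCM3 (chr6:52264014-52284881) had 137, 124 and 123 CPM in the controls and 135, 138 and 118 CPM in the knockdown libraries.

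MCM3 was the steadiest of the helicase core, with 128 ± 7.50 CPM in the controls and 130.2 ± 10.8 CPM in the knockdown libraries (mean ± SD, n = 3 each). MCM4 varied most, with 105 ± 21.7 CPM and 115 ± 18.9 CPM. The log2 differences of the 6 genes ranged from 0.024 (SE 0.090) for MCM3 to 0.15 (SE 0.15) for MCM2. Without knockdown replicate 2 the value for MCM2 was 0.00042 and those of the other 5 were below 0, and without control replicate 1 MCM2 was at 0.31.

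Helicase activation had the largest fitted differences of the 10 roles, with a median log2 difference of 0.20 and all 6 genes above 0. The median was 0.42 without control replicate 1, 0.084 without control replicate 3, when another role ranked higher, and 0.023 without knockdown replicate 2. GINS1 (chr20:25391008-25452700), a subunit of the GINS complex that joins CDC45 and the MCM ring, had 45.0, 26.5 and 28.0 CPM in the controls and 38.9, 48.7 and 32.3 CPM in the knockdown libraries. GINS4, another subunit, had 22.3, 14.2 and 16.4 CPM in the controls and 21.6, 24.8 and 16.2 CPM in the knockdown libraries. MCM10, which helps the assembled helicase to start, had 9.21, 6.24 and 6.46 CPM in the controls and 7.55, 10.8 and 7.09 CPM in the knockdown libraries. In these 3 genes control replicate 1 lay within the knockdown range, while control replicates 2 and 3 were below its lowest library or close to it. The log2 differences were 0.27 (SE 0.24) for GINS1, 0.25 (SE 0.20) for GINS4 and 0.22 (SE 0.21) for MCM10, and edgeR's adjusted p was 0.9995 for each. Without control replicate 1 they were 0.55, 0.45 and 0.42, and without knockdown replicate 2 they were 0.099, 0.098 and 0.0011. CDC45, GINS2 and GINS3 were at 0.12, 0.18 and 0.050.

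PCNA had 89.4, 72.8 and 70.1 CPM in the controls and 86.2, 101 and 70.1 CPM in the knockdown libraries. The group means were 77.4 ± 10.5 and 85.6 ± 15.2 CPM (SD, n = 3 each), a log2 difference of 0.15 (SE 0.14) within the spread of either group. It was 0.0093 without knockdown replicate 2 and 0.26 without control replicate 1. RFC4, a subunit of the clamp loader that opens PCNA and sets it on DNA, had 31.1, 27.5 and 28.1 CPM in the controls and 29.1, 31.0 and 29.6 CPM in the knockdown libraries. RFC5, another subunit, had 47.1, 45.1 and 39.7 CPM in the controls and 39.2, 43.1 and 37.8 CPM in the knockdown libraries. RFC5 was the gene with the lowest log2 difference, -0.13 (SE 0.097), and knockdown replicate 2 lay below control replicates 1 and 2. RFC4, RFC2 and RFC3 were at 0.048, 0.085 and 0.042.

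The catalytic polymerase genes POLA1, which starts each strand with primase, POLD1, which extends the lagging strand, and POLE, which extends the leading strand, had log2 differences of 0.081, 0.083 and 0.027. RPA1, which coats single-stranded DNA with RPA2, had 114, 102 and 101 CPM in the controls and 109, 114 and 98.6 CPM in the knockdown libraries. RPA2 had 53.2, 44.7 and 46.9 CPM in the controls and 49.7, 50.9 and 47.8 CPM in the knockdown libraries. Both RPA genes kept all 6 libraries within a narrow band, the highest library being 1.16 times the lowest for RPA1 and 1.19 times for RPA2. Their log2 differences were 0.026 (SE 0.088) and 0.036 (SE 0.091).

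FEN1 (chr11:61792911-61797238), the nuclease that trims the flaps of lagging strand fragments, had 53.5, 38.1 and 38.8 CPM in the controls and 50.7, 66.3 and 39.5 CPM in the knockdown libraries. The log2 difference was 0.27 (SE 0.21), and knockdown replicate 3 lay between the 2 lower controls and control replicate 1. Without knockdown replicate 2 the difference was 0.050, and without control replicate 1 it was 0.44. LIG1, the ligase that joins the fragments, and UNG, which removes uracil from DNA, were at 0.043 and -0.054.

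RRM1 (chr11:4094707-4138932), the large subunit of ribonucleotide reductase, had 70.9, 58.2 and 57.9 CPM in the controls and 66.3, 86.8 and 61.0 CPM in the knockdown libraries. RRM2, the small subunit, had 216, 143 and 144 CPM in the controls and 184, 214 and 152 CPM in the knockdown libraries. TK1 had 109, 72.6 and 68.5 CPM in the controls and 82.3, 113 and 69.4 CPM in the knockdown libraries. In RRM2 and TK1 control replicate 1 and knockdown replicate 2 were close to each other and above the remaining 4 libraries. RRM1 had the lowest unadjusted p of the 37 genes by edgeR's test, 0.1849, with a log2 difference of 0.20 (SE 0.14), which was 0.028 without knockdown replicate 2 and 0.30 without control replicate 1. RRM2 and TK1 were at 0.13 (SE 0.19) and 0.080 (SE 0.24). CHAF1A and CHAF1B, subunits of the factor that places histones on new DNA, were at 0.048 and -0.056.

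**Figure D3:**
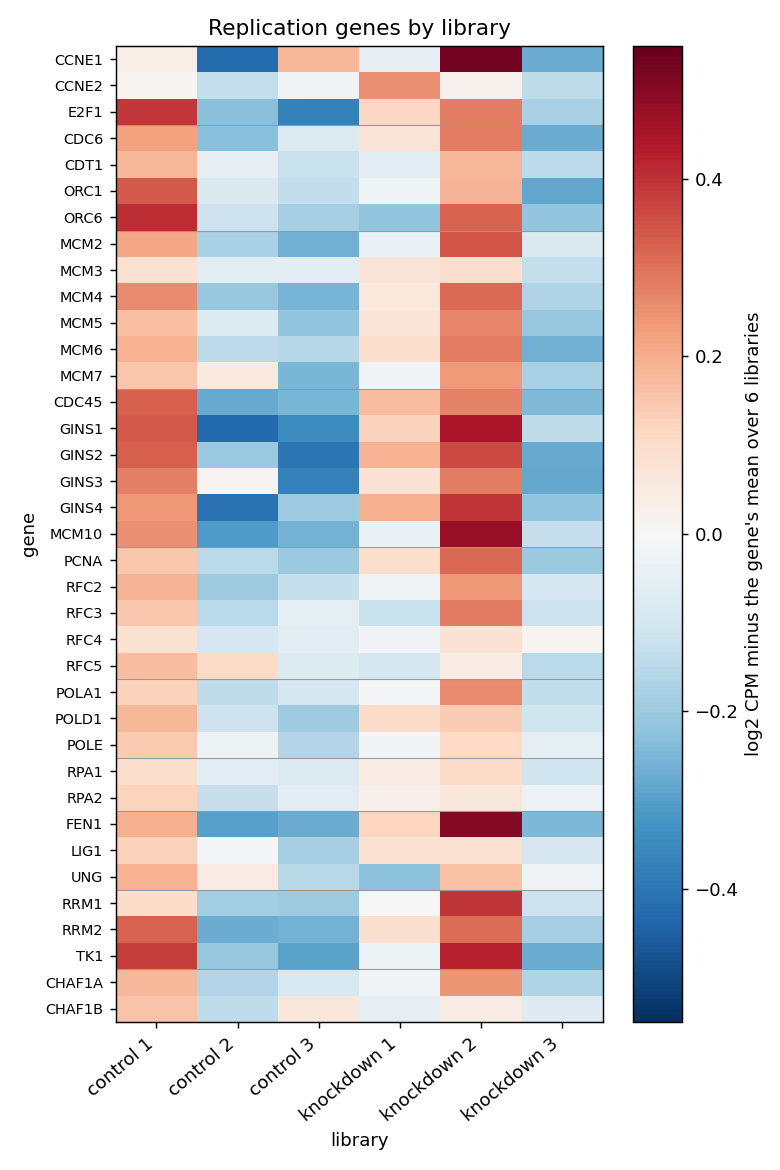
Log2 deviation of each of the 37 replication genes from its own mean over the 6 libraries, with libraries in columns and genes in rows grouped by role. All 37 genes are above their mean in control replicate 1 and in knockdown replicate 2.

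The replication genes moved together from library to library within each group. In control replicate 1 all 37 genes were above their own 6-library mean, by a median of 0.18 on the log2 scale and by 0.015 for CCNE2 to 0.41 for ORC6. In knockdown replicate 2 all 37 were above it too, by a median of 0.27 and by 0.022 for CCNE2 to 0.53 for CCNE1. In control replicates 2 and 3 and knockdown replicate 3, 4, 2 and 1 of the 37 were above it, with medians of -0.14, -0.18 and -0.15. Knockdown replicate 1 lay between, with 20 of 37 above and a median of 0.027. Of all tested genes, 50.4% to 52.5% were above their own mean in each library. The genes share libraries, so these counts describe 6 libraries and are not 37 separate results.

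Control replicate 1 and knockdown replicate 2 were picked after the values of these genes were seen. Their excess over the other libraries, and the shares below, are thus a description and not a test. Control replicate 1 was above control replicate 2 in 37 of 37 genes, by a median of 0.30 on the log2 scale, and above control replicate 3 in 36 of 37, by 0.35. CCNE1 was the exception. Knockdown replicate 2 was above knockdown replicate 3 in 37 of 37, by a median of 0.46, and above knockdown replicate 1 in 35 of 37, by 0.21. Control replicates 2 and 3 lay close together, with a median difference of 0.015 and 21 of 37 genes higher in control replicate 2. The fitted difference between the groups had a median of 0.081, which is not a like measure, since each group holds 1 of these 2 libraries. The highest library was knockdown replicate 2 for 23 genes, control replicate 1 for 13 and knockdown replicate 1 for CCNE2. Control replicate 1 and knockdown replicate 2 were the 2 highest libraries for 32 of 37 genes (86.5%), against 14.6% of tested genes in the same range of levels. The other 5 genes were RFC5, LIG1, CCNE1, CCNE2 and CHAF1B.

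**Figure D4:**
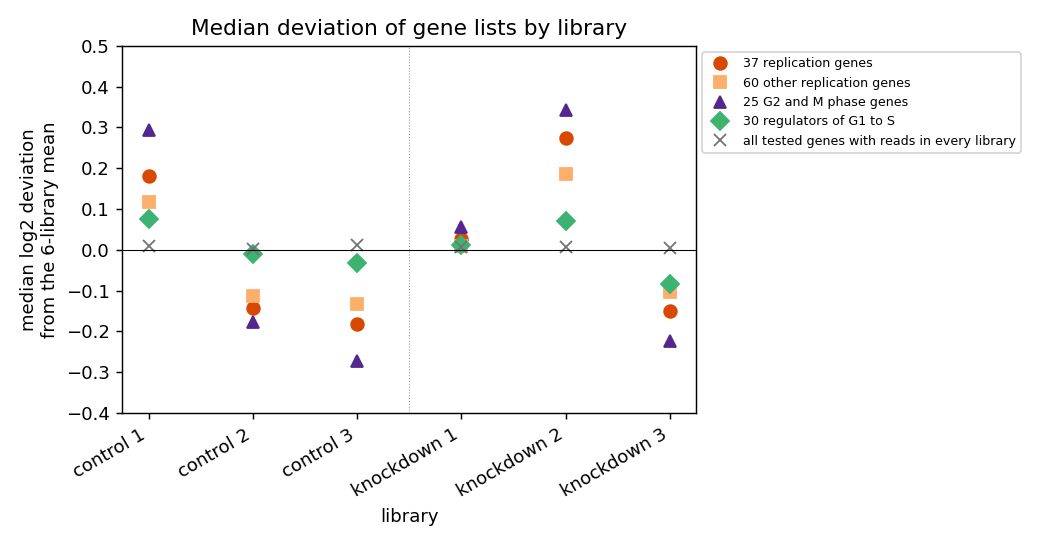
Median log2 deviation from the 6-library mean for 4 gene lists and for all tested genes with reads in every library, by library. In control replicate 1 and knockdown replicate 2 the G2 and M phase genes lie highest, at 0.30 and 0.34, and the 37 replication genes next, at 0.18 and 0.27.

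Genes of the other cell cycle phases were compared by the same measure. For 25 genes of G2 and M phase the median deviation was 0.30 in control replicate 1 and 0.34 in knockdown replicate 2, and it was -0.18, -0.27 and -0.22 in control replicates 2 and 3 and knockdown replicate 3. In 25 of the 25 genes these libraries were the 2 highest. MKI67, a marker of dividing cells, had 186, 139.9 and 145 CPM in the controls and 178, 225 and 148 CPM in the knockdown libraries. CDKN1A, the p21 inhibitor of cyclin-dependent kinases, had 27.2, 43.5 and 37.8 CPM in the controls and 41.0, 26.8 and 36.1 CPM in the knockdown libraries. Its 2 lowest libraries were thus the 2 that were highest for the replication genes. Of other inhibitors of these kinases, looked up afterwards, CDKN1B and CDKN2A also had them as their 2 lowest. CDKN2C had them as its 2 highest, and CDKN1C, CDKN2B and CDKN2D had neither. For 30 regulators of the passage from G1 to S the pattern was weaker, with 10 of 30 having these libraries as their 2 highest.

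Other measures of the libraries were read beside this pattern. Control replicate 1 and knockdown replicate 2 held 41591436 and 45405621 reads, within the range of the other 4 libraries. Mitochondrial genes took 4.35% and 3.9% of their reads, against 4.25% to 4.82% in the other 4. The summed level of the 12 mesenchymal markers was 3525, 3309 and 3599 CPM in the controls and 2617, 4036 and 4361 CPM in the knockdown libraries. The 7 epithelial markers summed to 1734, 1745 and 1640 CPM and to 2013, 1683 and 1670 CPM. Neither list had control replicate 1 and knockdown replicate 2 as its 2 highest or its 2 lowest libraries. The 4 endothelial markers did have them as the 2 lowest, at 153.8, 168.7 and 265.8 CPM in the controls and 161.4, 122.7 and 238.8 CPM in the knockdown libraries. Nearly all of that sum came from 2 of these markers, KDR and PECAM1, with means of 161 and 23.2 CPM. The other 2, CDH5 and VWF, had means under 1 CPM. The 15 gastric markers summed to 64.5, 98.8 and 142 CPM and to 71.1, 130.3 and 111 CPM, and the 7 immune markers to 0.667 to 1.47 CPM in all libraries. MUC5AC, a mucin of the stomach surface, stood at 41.7 CPM in knockdown replicate 2 and at 9.09 CPM in control replicate 1, and at 3.75 to 5.27 CPM in the other 4 libraries. TFF2 of the same list went the other way, at 0.627 and 0.56 CPM in these libraries and at 1.18 to 3.44 CPM in the other 4. MUC6 and TFF1 were lowest in control replicate 1, at 26.0 and 1.66 CPM, and stood at 51.1 and 7.46 CPM in knockdown replicate 2. The part of these in the pattern was not tested.

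**Figure D5:**
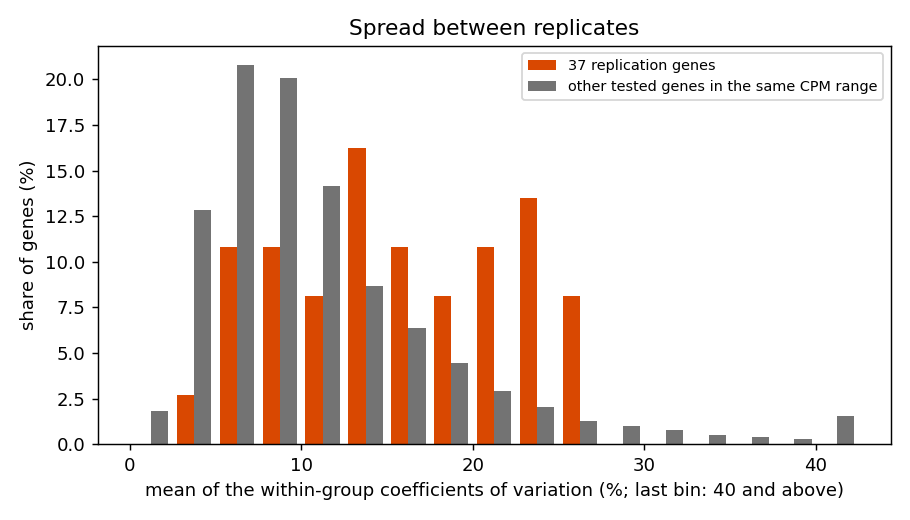
Share of genes, in percent, by the mean of the 2 within-group coefficients of variation, for the 37 replication genes and for 11526 other tested genes in the same range of mean CPM. The replication genes lie further to the right, with a median of 15.5% against 9.24%.

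The spread between replicates of the replication genes was wider than that of genes of like level. The coefficient of variation, the SD as a percent of the mean within a group of 3 and then averaged over both groups, had a median of 15.5% over the 37 genes. It was 9.24% over the 11526 other tested genes with a mean level in the same range, 2.90 to 175 CPM. Of the 37 genes, 29 lay above that value and 21 among the 25% of those genes with the widest spread. The median of the 37 genes was 9.76% without control replicate 1, against 8.38% for those genes, and 12.05% without knockdown replicate 2, against 8.14%. The medians within each group were 14.2% for the controls and 16.4% for the labelled knockdown, and the knockdown value was the larger in 17 of 37 genes (45.9%), against 53.1% of the genes of like level.

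Spread differed between genes, within roles as well as between them. TK1, GINS1 and CCNE1 were the most variable genes, at 26.0%, 25.8% and 25.2%, and RFC4, RPA2 and RPA1 the least, at 4.99%, 6.16% and 7.01%. The medians by role were 22.7% for helicase activation, 22.6% for S phase entry and 20.9% for nucleotide supply, against 11.6% for the polymerases and 6.59% for single-strand binding. These roles hold 2 to 6 genes each, and S phase entry ran from 9.41% for CCNE2 to 25.2% for CCNE1. Counting error alone, with each pair of mates taken as 1 event, would give 2.27% for TK1, 12.2% for CCNE1 and 3.85% for RFC4. All 37 genes had a larger spread than that. Genes with E2F letters upstream of the start had a median of 13.2% and those without a median of 17.6%, as a description of 12 and 20 genes. With the first 50 bases of the transcript included, the medians were 15.0% and 16.5%.

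The other genes of DNA replication were read from a list of 60, all of which were tested. By edgeR's test 0 of the 60 passed the threshold, as did 0 by DESeq2 and limma-voom, and their median log2 difference was 0.053 with 45 of 60 above 0, against 50.8% of all tested genes. Without knockdown replicate 2 the median was -0.013 with 25 of 60 above 0, and without control replicate 1 it was 0.13 with 49 of 60 above 0. At an unadjusted p under 0.05 there were 3 of 60, all higher in the labelled knockdown, against 1.98% of the tested genes in that direction. POLE4, a small histone-fold subunit of the leading strand polymerase, had 17.3, 17.0 and 14.9 CPM in the controls and 21.7, 21.9 and 18.5 CPM in the knockdown libraries. CHTF18, which belongs to an alternative clamp loader, had 85.6, 80.4 and 66.0 CPM in the controls and 101, 93.5 and 87.6 CPM in the knockdown libraries. These were the 2 genes of the list whose groups did not overlap, both higher in the labelled knockdown, against 4.32% of the tested genes. RNASEH2C, a subunit of the nuclease that removes ribonucleotides from DNA, had 33.1, 30.9 and 29.2 CPM in the controls and 37.2, 44.8 and 32.9 CPM in the knockdown libraries, which overlapped. The log2 differences were 0.34 (SE 0.12) for POLE4, 0.29 (SE 0.11) for CHTF18 and 0.30 (SE 0.12) for RNASEH2C, with an adjusted p by edgeR of 0.9995 for each. The lowest adjusted p over all the alternatives was 0.6143, 0.4657 and 0.5615 in that order.

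Regulators of the cell cycle did not pass the test either. Of 31 listed regulators of the passage from G1 to S, 30 were tested, with CCND2 under the filter, and edgeR, DESeq2 and limma-voom called 0 of those they tested, also 0 at an unadjusted p under 0.05 by edgeR. CDK2, the kinase partner of cyclin E, had 36.7, 33.0 and 31.3 CPM in the controls and 28.8, 31.7 and 29.3 CPM in the knockdown libraries. Its groups overlapped through knockdown replicate 2 and control replicate 3. SKP2, which marks the p27 inhibitor for breakdown, had 45.5, 42.1 and 48.1 CPM in the controls and 47.1, 55.8 and 48.8 CPM in the knockdown libraries. The log2 differences were -0.17 for CDK2, 0.16 for SKP2 and -0.065 for CDKN1A. E2F7, a repressor of E2F targets and named after its values were seen, was the 1 gene of this list whose groups did not overlap, against 4.88% of the tested genes that were lower. It had 63.9, 66.5 and 66.3 CPM in the controls and 63.6, 62.9 and 63.0 CPM in the knockdown libraries, a log2 difference of -0.053.

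For G2 and M phase, 0 of 25 genes passed by edgeR, with 0 at an unadjusted p under 0.05, and 23 of 25 lay above 0, against 50.8% of all tested genes, with a median log2 difference of 0.11. Without knockdown replicate 2 the median was -0.086 with 6 of 25 above 0, without control replicate 3 it was -0.0033 with 10 of 25, and without control replicate 1 it was 0.32 with 25 of 25. BUB1, a kinase of the spindle checkpoint, had 60.1, 42.9 and 45.8 CPM in the controls and 58.2, 75.7 and 46.6 CPM in the knockdown libraries, a log2 difference of 0.28. MKI67 was at 0.23. Without knockdown replicate 2 they were 0.075 and 0.051, and without control replicate 1 they were 0.44 and 0.37. In both genes the groups overlapped and knockdown replicate 2 was highest.

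Reads were counted without regard to strand, and 17 of the 37 genes share exon bases with another annotated gene. The share of exon bases was 37.1% for CCNE2, 23.6% for MCM2 and 23.4% for GINS4. CCNE2 overlaps INTS8 and GINS4 overlaps GPAT4-AS1, and each also overlaps a gene without a symbol. Reads that fell on both genes were not counted, so reads from the shared bases are missing from their levels.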

How the data were processed

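Poly(A) RNA of 3 control and 3 labelled NNMT knockdown cultures was sequenced, and the authors deposited raw read counts per gene. The counts were made with featureCounts 2.0.6 on the hg38 build with GENCODE 44, per the file headers, which show no strand option, no counting of pairs as fragments, and no counting of reads on several genes or places. Of counts from 2 to 10, 73.4% to 76.7% were even, so mates were counted singly and counting errors are larger than reads imply. The sources used here name no aligner. The library kit is named in 2 ways in the labels.

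Genes were filtered with filterByExpr, scaled with TMM and tested with edgeR 4.0.16 (R 4.3.3, limma 3.58.1) by the robust quasi-likelihood test on group alone, and p-values were adjusted over all 20250 genes by Benjamini-Hochberg at 0.05. CPM are TMM-scaled, and NNMT, which did not pass the filter, was added to the fit. The biological coefficient of variation was 18.3%. On counts simulated from 20250 genes, the test recovered 96 of 106 genes changed 2-fold with a mean of at least 5 CPM, with 23 false calls, and it made 2 calls with no change simulated. Genes were simulated independently of each other, without the shared movement between libraries of the replication genes, and smaller changes were not simulated. The recovery therefore does not give the sensitivity for the replication genes. With 3 samples against 3, an exact permutation test of 1 gene could not go below 0.1.

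The 37 genes, the companion lists and the rule for named genes were chosen with earlier results of these data known. All 37 may be named. Values by library are given for NNMT, role representatives, the 8 lowest unadjusted p, the 3 highest and 3 lowest spreads, and in the companion lists up to 4 genes with the lowest p, CDKN1A and MKI67. Alternatives were other scalings and filters, DESeq2 1.42.0, limma-voom, non-robust dispersion, halved counts, a replicate block and each library left out.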

Additional observations from a re-analysis of the deposited data

How the results depend on the processing

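The count of replication genes passing the threshold was 0 under all 15 alternatives, and so was that of the 60 other replication genes. With a minimum mean of 5 CPM, CCNE1 was not tested. Over all tested genes the count was 0 in the reported fit, 72 without the low-count filter and 8 by DESeq2, and 0 to 1 with a library left out, the 1 without control replicate 3. The cause was not tested. An unadjusted p under 0.05 in edgeR was reached by 2 replication genes with the low-count filter off, 6 without control replicate 1 and 1 without knockdown replicate 3, with lowest adjusted p of 0.8266, 0.8776 and 0.7397, and by 0 under the other settings. The median log2 difference of the 37 genes was -0.024 to 0.20 with a library left out and 0.075 to 0.082 in the other settings. It was 0.075 with the replicate block, which changed no call. Replicate numbers were not taken as pairs, since the deviations of same-numbered libraries correlated at 0.066, -0.14 and 0.28 across genes and not every library correlated best with its own number. Knockdown replicate 2 correlated best with control replicate 1, at 0.238, and knockdown replicate 1 with control replicate 2, at 0.0788. Of 47 genes followed singly, all 37 replication genes among them, 26 changed sign when a library was left out, and 0 passed the threshold under any setting. Their ranges were -0.021 to 0.090 for MCM3, -0.0057 to 0.31 for MCM4, -0.034 to 0.21 for MCM5, -0.052 to 0.22 for MCM6 and -0.094 to 0.12 for MCM7. They were -0.11 to 0.32 for CCNE1, -0.013 to 0.18 for CCNE2, -0.028 to 0.38 for E2F1, -0.078 to 0.20 for CDC6 and -0.11 to 0.083 for CDT1. They were -0.0042 to 0.35 for RRM2, -0.14 to 0.32 for TK1, -0.017 to 0.11 for RPA2, -0.025 to 0.083 for RPA1 and -0.23 to 0.089 for CDKN1A. They were -0.11 to 0.21 for GINS3, -0.21 to 0.079 for ORC1, -0.28 to 0.13 for ORC6, -0.024 to 0.21 for RFC2, -0.11 to 0.13 for RFC3 and -0.044 to 0.17 for POLA1. They were -0.044 to 0.11 for POLE, -0.034 to 0.12 for LIG1, -0.076 to 0.15 for CHAF1A, -0.14 to 0.0083 for CHAF1B and -0.16 to 0.037 for UNG. By limma-voom CDT1 was at 0.0044. In fits that leave 2 libraries in a group, the spread is shared over both groups.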
